A study of Mus musculus with 20 samples.

Results

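The markers of monocyte infiltration followed here were 9 genes taken by symbol (*Ccr2*, *Ccr1*, *Ly6c1*, *Ly6c2*, *Emr1*, *Plac8*, *Ifitm6*, *S100a8* and *S100a9*). They were chosen with earlier results of these data known, and all 9 were found among the 16810 genes of the deposited table. Monocytes are white blood cells made in the bone marrow. They enter injured tissue by following chemokines, in large part through the receptor CCR2, and then mature into macrophages, whereas microglia settle in the central nervous system before birth and renew themselves there. Classical monocytes carry high CCR2 and high Ly6C on their surface. Once in the tissue they lower both and come to resemble microglia, so that transcripts of these genes are used to look for recent arrivals.

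The study sorted microglia as eGFP-high cells from thoracic spinal cord of adult male CX3CR1+/eGFP mice and sequenced polyadenylated RNA from them, to ask how the cells change with time and with the severity of a spinal cord injury. Non-injured (NI) controls gave 3 samples. Lateral hemisection (HS), which cuts 1 side of the cord, was followed at 72 h (3 samples), 1 week (2) and 2 weeks (3). Full transection (FT) was followed at the same times with 3 samples each. All 7 groups, NI included, carry 1 *Cx3cr1* allele replaced by eGFP. The *Cx3cr1* promoter also marks blood monocytes. The paper describes inflammatory monocytes, the classical ones, as low in CX3CR1 and high in Ly6C. It describes patrolling monocytes as high in CX3CR1 with little or no Ly6C. How much of either the eGFP-high gate let through was not tested here. By the study's methods the sort for sequencing rested on eGFP with no antibody against CD45 or Ly6C. Cells of the same eGFP-high gate from NI and HS cords were stained for CD45, CD11b and Ly6C in a parallel experiment that is not analysed here. The methods call the samples biological replicates and count more mice than libraries without saying how they were divided, so the p-values measure the spread between these samples. In RNA pooled from many cells, more cells of a type and more RNA per cell cannot be told apart.

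Values are normalized read counts in CPM, in which the reads of a gene are scaled to the library size after edgeR's correction factor. Depth was 3872918 to 34099232 reads per sample, and 1 read was worth 0.0330 to 0.292 CPM. The 12 homeostatic microglia genes of a fixed list, such as *P2ry12* and *Tmem119*, summed to between 24440 and 34630 CPM in NI samples and between 19140 and 40420 CPM in injured samples, with no gene at 0 reads. Some samples were often at the edge of their group. FT 72 h replicate 1 was the highest of its group for 6 of the 9 genes, FT 2 weeks replicate 1 was the lowest of its group for 6 of the 9, and FT 1 week replicate 1 was the lowest for 5 and the highest for the other 4. Among the other samples, HS 2 weeks replicate 3 was the lowest of its group for 7, and HS 2 weeks replicate 1 and NI replicate 1 were each the highest for 6.

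*Ly6c1* and *Ly6c2* are near copies of each other, and how far their reads can be kept apart bears on every value given for them. In the GRCm38 annotation they lie on chromosome 15, *Ly6c1* at chr15:75044018-75048830 and *Ly6c2* at chr15:75108158-75111970, both on the minus strand. Their coding sequences have 393 bases each, differ at 9 of them (97.71% identical) and share an unbroken identical run of 188 bases. The first 120 coding bases, which hold 6 of the 9 differences, are shown 5′ to 3′ with the bases that differ in capitals.
Ly6c1 coding bases 1 to 120: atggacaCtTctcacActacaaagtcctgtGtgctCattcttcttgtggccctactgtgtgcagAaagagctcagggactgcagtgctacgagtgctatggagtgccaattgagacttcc
Ly6c2 coding bases 1 to 120: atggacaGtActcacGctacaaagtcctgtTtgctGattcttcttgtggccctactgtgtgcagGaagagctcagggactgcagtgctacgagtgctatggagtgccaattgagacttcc
Reads from the identical stretch could be placed on either gene, and how the authors' counting treated them is not stated, so both genes are uncertain. Their values nonetheless did not move as one. The ratio of *Ly6c1* to *Ly6c2* in CPM ran from 1.86 in FT 1 week replicate 3 to 26.0 in FT 2 weeks replicate 1, with a median of 4.94 over the 20 samples. The 26.0 rested on 26 reads of *Ly6c1* and 1 of *Ly6c2*, so it is imprecise. In NI replicate 1 the ratio was 22.6, from 316 and 14 reads.

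*S100a8* and *S100a9* are also neighbours, at chr3:90668978-90670035 on the plus strand and chr3:90692632-90695721 on the minus strand of GRCm38. Their products pair into calprotectin, a protein that neutrophils and classical monocytes hold in large amounts. The 2 genes varied together across the 20 samples, with an *S100a8* to *S100a9* ratio between 1.27 and 2.56 (median 1.69), and for that reason their promoters are shown, from 250 bases before to 50 bases after the start in RefSeq (GRCm38.p6).
S100a8 promoter window, chr3:90668821-90669120, plus strand: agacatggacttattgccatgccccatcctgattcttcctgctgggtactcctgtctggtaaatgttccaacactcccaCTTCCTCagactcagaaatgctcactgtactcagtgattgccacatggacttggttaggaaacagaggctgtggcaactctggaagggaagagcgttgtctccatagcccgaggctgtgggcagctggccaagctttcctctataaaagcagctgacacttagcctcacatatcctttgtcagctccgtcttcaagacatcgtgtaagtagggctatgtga
S100a9 promoter window, chr3:90695672-90695971, minus strand: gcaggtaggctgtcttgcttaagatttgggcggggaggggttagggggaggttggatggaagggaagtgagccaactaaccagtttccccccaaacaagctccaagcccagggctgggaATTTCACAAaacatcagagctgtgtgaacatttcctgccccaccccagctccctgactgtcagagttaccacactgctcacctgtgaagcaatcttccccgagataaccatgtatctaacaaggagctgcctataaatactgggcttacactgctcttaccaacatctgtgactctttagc
Capitals mark matches, on either strand, to the letters GAGGAAG (the core of PU.1 sites) or TTNNGNAAT (a C/EBP pattern, which does not overlap the first here), PU.1 and C/EBP being transcription factors of myeloid cells. The *S100a8* window held 1 match to GAGGAAG and none to TTNNGNAAT, and the *S100a9* window held 1 match to TTNNGNAAT and none to GAGGAAG. Of 32851 promoter windows of the same length, 13.6% held GAGGAAG and 11.5% held TTNNGNAAT. Such matches describe letters and are not evidence of binding.

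Per kilobase of exon, counting every exon base annotated for a gene, the markers differed widely in mean level in NI samples. *Emr1*, which encodes the F4/80 antigen of macrophages and microglia, had a mean of 129 CPM per kb, far above *S100a8* (27.3), *S100a9* (20), *Ly6c1* (8.86) and *Ccr1* (8.79). The means of *Ccr2* (2.66 CPM per kb), *Ifitm6* (1.98), *Plac8* (1.21) and *Ly6c2* (0.394) were the lowest. At 72 h after FT the order of the means was *Emr1* (273 CPM per kb), *Ccr1* (26.3), *Ccr2* (14.4), *S100a8* (14.3), *S100a9* (9.64), *Ly6c1* (7.35), *Ifitm6* (5.23), *Plac8* (4.29) and *Ly6c2* (1.69). Neighbours in these orders were not tested against each other. Some means rested mostly on replicate 1, as for *S100a8* in NI (35.3 CPM against 13.1 and 8.44) and at FT 72 h (19.5 against 4.67 and 5.70). The same held for *Ifitm6* at FT 72 h (9.86 CPM against 2.92 and 1.42).

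The chemokine receptors *Ccr2* and *Ccr1* rose at 72 h after either injury and at 2 weeks neither differed from NI by the test. *Ccr2* (chr9:124101950-124113557), the receptor that draws classical monocytes out of the marrow and into tissue, had 14.6, 20.1 and 19.3 CPM in the NI samples. At 72 h it had 34.6, 81.1 and 100.2 CPM after HS, and 166, 68.1 and 57.0 CPM after FT. All 6 injured samples at 72 h lay above all NI samples. *Ccr2* had 37.7 and 17.1 CPM at HS 1 week, 23.4, 22.2 and 16.5 CPM at HS 2 weeks, 7.93, 28.1 and 29.6 CPM at FT 1 week and 20.03, 14.5 and 18.9 CPM at FT 2 weeks. Each of these later groups overlapped NI.

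A gene was called when its limma adjusted p (Benjamini-Hochberg over 16810 genes) was under 0.05 and its change at least 2-fold, on log2 of CPM plus 0.5. By this test *Ccr2* rose 3.61-fold at HS 72 h (log2 fold change 1.85, SE 0.45, adjusted p = 0.00394) and 4.75-fold at FT 72 h (2.25, SE 0.45, adjusted p = 0.000867). Both calls held under each of 16 alternatives, with log2 fold changes of 1.35 to 2.31 after HS and 1.78 to 2.54 after FT. At the later times the log2 difference of *Ccr2* from NI was 0.50 and 0.20 after HS and 0.08 and -0.01 after FT, at 1 and 2 weeks, with 95% intervals that all included 0. Compared directly with the mean of the 1 week and 2 weeks groups of the same injury, *Ccr2* was higher at 72 h by 1.502 after HS (limma adjusted p = 0.0147) and by 2.21 after FT (adjusted p = 0.000655). The HS call was lost without HS 72 h replicate 2 (1.35, adjusted p = 0.0752) or replicate 3 (1.20, adjusted p = 0.0782), and without HS 1 week replicate 2 (1.22, adjusted p = 0.0783), while over all 18 alternatives its adjusted p ran from 0.00455 to 0.0783. The genes whose pattern over the 20 samples was nearest to that of *Ccr2* were *Tgfbi*, *Arhgef39* and *Qpct*, at root mean square differences of 0.46, 0.50 and 0.51 on the log2 scale, against a standard deviation of 1.05 for *Ccr2* itself.

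*Ccr1* (chr9:123962124-123968692), a receptor for CCL3, CCL5 and related chemokines on monocytes and other leukocytes, varied little within most groups. It had 26.0, 24.1 and 24.6 CPM in NI, and at 72 h it had 72.4, 86.4 and 75.0 CPM after HS and 112, 56.4 and 55.1 CPM after FT. At 1 week it had 37.9 and 34.5 CPM after HS and 21.0, 60.04 and 56.5 CPM after FT. At 2 weeks it had 14.7, 18.6 and 19.7 CPM after HS and 24.0, 17.4 and 16.3 CPM after FT, so that every 2 weeks sample lay below every NI sample. From the highest group mean to the lowest, the order was HS 72 h, FT 72 h, FT 1 week, HS 1 week, NI, FT 2 weeks and HS 2 weeks, and the only neighbours in it without overlap were HS 1 week with NI and NI with FT 2 weeks.

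*Ccr1* rose 3.08-fold at HS 72 h (log2 fold change 1.62, SE 0.30, limma adjusted p = 0.000415) and 2.79-fold at FT 72 h (1.48, SE 0.30, adjusted p = 0.00109), and both calls held under each of 16 alternatives. The mean at 72 h was above the later times of the same injury by 1.61 on the log2 scale after HS (adjusted p = 0.000372) and by 1.31 after FT (adjusted p = 0.00249), the latter losing its 2-fold size without FT 72 h replicate 1 (0.98, adjusted p = 0.0398, range over 19 alternatives 4.27e-05 to 0.0398). The values below NI at 2 weeks did not pass the test (-0.49 after HS and -0.38 after FT, limma adjusted p = 0.471 and 0.556). At 2 weeks *Ccr1* was 2.10-fold lower than at 1 week, averaged over both injuries (log2 difference -1.07, SE 0.23), which missed the threshold (limma adjusted p = 0.0539). Without FT 1 week replicate 1, which had 21.0 CPM, this difference passed (-1.31, adjusted p = 0.00116), and over 21 alternatives its adjusted p ran from 0.00116 to 0.292. *Ccr1* was most like *Ms4a6b*, *Dab2* and *Ncaph* over the 20 samples.

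**Figure D1:**
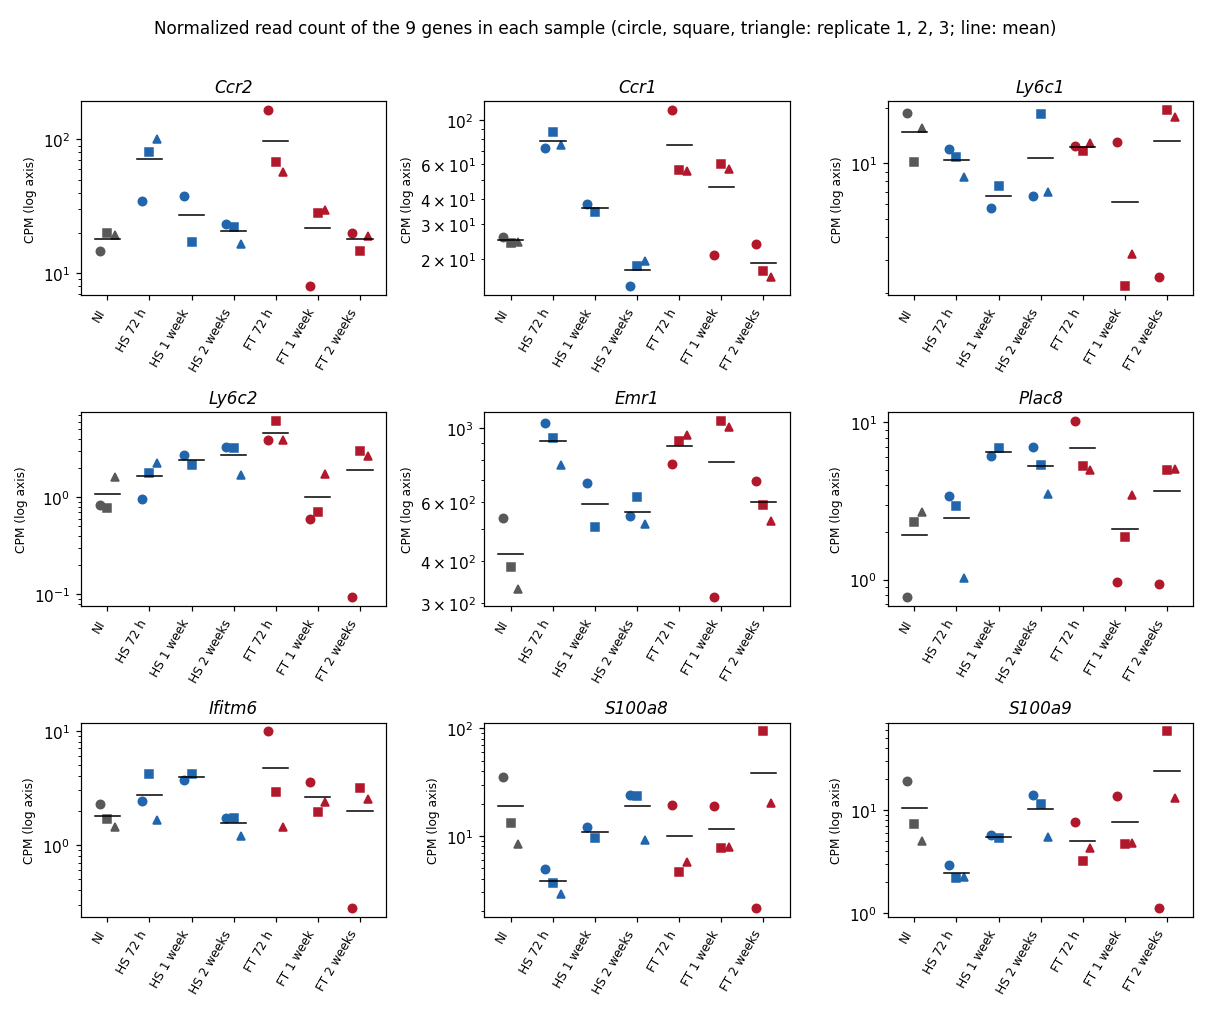
Normalized read count (CPM, log axis) of the 9 markers in each of the 20 samples, by group on the horizontal axis, with circles, squares and triangles for replicates 1, 2 and 3 and a line at the group mean. *Ccr2* and *Ccr1* lie above NI in every 72 h sample, *Ly6c2* is highest in the 3 FT 72 h samples, and at FT 2 weeks replicate 1 (circles) is low for 6 genes, with 1 read of *Ly6c2*, while replicate 2 (squares) holds the highest *S100a8* and *S100a9* values.

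The ligands of these receptors were measured in the same cells. Of 4 CCR2 ligands, 1 was called higher at 72 h after each injury, namely *Ccl12* (log2 fold change 1.37 after HS and 1.35 after FT, limma adjusted p = 0.00712 and 0.00859). Of all genes, 9.08% were called higher at HS 72 h and 8.14% at FT 72 h. Of 5 CCR1 ligands, *Ccl6* rose at 72 h after both injuries (1.46 and 1.43) and *Ccl5* rose at FT 72 h (1.12, limma adjusted p = 0.00347), where its value at HS 72 h was 0.29 (adjusted p = 0.421). The direct FT minus HS difference of *Ccl5* at 72 h was 0.82 (95% interval 0.28 to 1.37, unadjusted p = 0.00492), which did not pass over all genes (limma adjusted p = 1). *Ccl5* was higher at 2 weeks after both injuries (2.98 after HS and 4.11 after FT). The 72 h counts moved under 2 of the scalings. With quantile normalization 0 of the CCR2 ligands and 0 and 1 of the CCR1 ligands were called at HS and FT 72 h, and with equal column totals none was. With median of ratios, edgeR and DESeq2 the counts at 72 h stayed as in the main fit, 1 and 1 for CCR2 ligands and 1 and 2 for CCR1 ligands.

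Of the Ly6C antigen genes, *Ly6c2* rose at FT 72 h and *Ly6c1* was called nowhere. *Ly6c2* encodes the Ly6C of classical monocytes, and it was near the limit of detection, with 1 to 44 reads in a sample. It had 0.834, 0.772 and 1.63 CPM in NI and 0.958, 1.79 and 2.26 CPM at HS 72 h. At FT 72 h it had 3.87, 6.13 and 3.92 CPM (31, 21 and 44 reads), the 3 highest values of all 20 samples. The later HS samples had 2.72 and 2.17 CPM at 1 week and 3.27, 3.21 and 1.69 CPM at 2 weeks, all above the highest NI value. The later FT samples had 0.593, 0.696 and 1.73 CPM at 1 week and 0.0936, 2.96 and 2.67 CPM at 2 weeks, where the first was a single read.

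*Ly6c2* rose 3.28-fold at FT 72 h (log2 fold change 1.72, SE 0.49, limma adjusted p = 0.0131), and it was higher there than at the later FT times by 1.63 (adjusted p = 0.0177). At HS 72 h the difference from NI was 0.45 (SE 0.49, adjusted p = 0.514). The FT 72 h call was lost without NI replicate 2 (1.58, adjusted p = 0.0572) or FT 72 h replicate 2 (1.52, adjusted p = 0.0548), with adjusted p between 0.00212 and 0.0572 over 16 alternatives. The comparison with the later FT times was lost without FT 72 h replicate 2 (1.43, adjusted p = 0.103) and when only the groups compared were fitted (adjusted p = 0.0786), over a range of 0.00745 to 0.103. The HS values at 1 and 2 weeks were above NI by 0.93 and 1.03 on the log2 scale without passing (limma adjusted p = 0.530 and 0.299). At FT 2 weeks the difference was 0.28 with all samples and 1.11 without replicate 1 (adjusted p = 0.0965), and neither passed.

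*Ly6c1*, whose product is also found on endothelial cells and some lymphocytes, was not called in any of the 12 comparisons. It had 18.8, 10.2 and 15.5 CPM in NI, 11.9, 10.8 and 8.41 CPM at HS 72 h and 12.5, 11.7 and 12.8 CPM at FT 72 h. At 1 week it had 5.72 and 7.58 CPM after HS and 13.1, 2.17 and 3.23 CPM after FT, and at 2 weeks 6.71, 18.4 and 7.01 CPM after HS and 2.43, 19.4 and 17.7 CPM after FT. Within FT 1 week and within FT 2 weeks the highest sample thus had several times the lowest. The most negative difference from NI was at FT 1 week (-1.54, SE 0.58, limma adjusted p = 0.131), and it passed without replicate 1 (-2.24, adjusted p = 0.0122, range over 16 alternatives 0.0122 to 0.436).

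The nearest patterns to *Ly6c1* were those of *Itm2a* (root mean square difference 0.32), *Esam* (0.42) and *Epas1* (0.43), of which *Esam*, an adhesion molecule of endothelial junctions, is in the fixed endothelial list. *Esam* had 6.89, 2.71 and 3.15 CPM at FT 1 week and 0.842, 10.6 and 9.32 CPM at FT 2 weeks, low in the same samples as *Ly6c1*. *Pecam1*, of the same list, did not show these drops, with 5.93, 6.04 and 7.65 CPM at FT 1 week and 5.15, 5.31 and 7.33 CPM at FT 2 weeks. *Cldn5* and *Cdh5*, also listed, were highest in replicate 1 at FT 1 week, as *Esam* was. The 9 endothelial genes summed to between 62.3 and 88.3 CPM in NI, 45.7 and 81.0 CPM at FT 1 week and 61.6 and 106.7 CPM at FT 2 weeks, with none at 0 reads in all samples. At FT 1 week 1 of the 9 was called lower and 0 higher, where 1.2% of all genes were called lower and 2.86% higher. Endothelial cells are not known to use the *Cx3cr1* promoter, on which the sort rested. The part of endothelial RNA in the *Ly6c1* values was not tested.

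*Emr1* (chr17:57358691-57483527), now named *Adgre1*, is expressed by microglia and macrophages alike. It had 539.6, 384.9 and 330.9 CPM in NI, 1033, 934 and 774 CPM at HS 72 h and 780, 915 and 956 CPM at FT 72 h. At 1 week it had 683 and 505 CPM after HS and 312, 1051 and 1004 CPM after FT, and at 2 weeks 546, 621 and 515 CPM after HS and 692, 587 and 528 CPM after FT. All 72 h samples lay above all NI samples, and FT 1 week replicate 1 lay below all of them.

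*Emr1* rose 2.21-fold at HS 72 h (log2 fold change 1.15, SE 0.32, limma adjusted p = 0.0103) and 2.15-fold at FT 72 h (1.10, SE 0.32, adjusted p = 0.0145). These 2 calls depended on the scaling. The columns of NI samples summed to 777426 to 830481 CPM and those of injured samples to 878070 to 1202186 CPM. With all columns brought to 1 total, the median of all genes moved to -0.52 at HS 72 h and -0.48 at FT 72 h, and the differences of *Emr1* were 0.64 and 0.63. Quantile normalization gave 0.53 and 0.57, and neither setting gave a call (adjusted p of 0.0571 to 0.154). Without NI replicate 3 the values were 0.99 and 0.95, and the FT call was also lost without NI replicate 2 (1.06). Over all alternatives the adjusted p ran from 0.00104 to 0.154 after HS and from 0.00211 to 0.125 after FT. *Emr1* was closest to *Gdi2*, *Vps35* and *Abi1*, which encode proteins of membrane traffic and the cytoskeleton, at root mean square differences of 0.13, 0.13 and 0.14.

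*Plac8* (chr5:100553725-100572245) and *Ifitm6* (chr7:141015699-141017924) encode small proteins whose transcripts are high in classical monocytes. *Plac8* had 0.775, 2.32 and 2.69 CPM in NI and 3.40, 2.92 and 1.03 CPM at HS 72 h. At FT 72 h it had 10.2, 5.26 and 4.99 CPM, all above both NI and HS 72 h. The later HS samples had 6.13 and 6.86 CPM at 1 week and 7.02, 5.34 and 3.50 CPM at 2 weeks, all above NI. After FT it had 0.963, 1.86 and 3.47 CPM at 1 week and 0.936, 4.96 and 5.04 CPM at 2 weeks, both overlapping NI.

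Against NI, *Plac8* rose 3.10-fold at FT 72 h (log2 fold change 1.63, SE 0.50, limma adjusted p = 0.0204). At HS 72 h the difference was 0.28 (adjusted p = 0.703), at HS 1 week 1.63 (adjusted p = 0.147) and at HS 2 weeks 1.31 (adjusted p = 0.162), none of which passed. The FT 72 h call was lost without NI replicate 1 (1.22, adjusted p = 0.109), without FT 72 h replicate 1 (1.32, adjusted p = 0.1) and with equal column totals (1.24, adjusted p = 0.0526), and its adjusted p ran from 0.00390 to 0.109 over 16 alternatives. The nearest pattern to *Plac8* over the 20 samples was *Ly6c2*, and the reverse also held (root mean square difference 0.57). *Trem3*, a receptor of myeloid cells, was in the nearest 3 of both.

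*Ifitm6* was not called in any of the 12 comparisons. It had 2.26, 1.67 and 1.44 CPM in NI, 2.44, 4.15 and 1.64 CPM at HS 72 h and 9.86, 2.92 and 1.42 CPM at FT 72 h. At 1 week it had 3.68 and 4.21 CPM after HS and 3.56, 1.93 and 2.37 CPM after FT, and at 2 weeks 1.71, 1.71 and 1.21 CPM after HS and 0.281, 3.14 and 2.52 CPM after FT. The single high value at FT 72 h was replicate 1, and the difference from NI there was 0.85 (SE 0.51, limma adjusted p = 0.242) with it and 0.18 without it. The genes nearest to *Ifitm6* were *Clec10a*, *Atp8b4* and *Traf1*.

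*S100a8* and *S100a9* had values below NI at HS 72 h, which missed the threshold, and varied more between replicates than the receptors. *S100a8* had 35.3, 13.1 and 8.44 CPM in NI and 4.95, 3.67 and 2.87 CPM at HS 72 h, each HS value below each NI value. At FT 72 h it had 19.5, 4.67 and 5.70 CPM. Later it had 12.1 and 9.50 CPM at HS 1 week, 23.9, 23.7 and 9.18 CPM at HS 2 weeks, 19.05, 7.66 and 7.96 CPM at FT 1 week and 2.15, 93.5 and 20.1 CPM at FT 2 weeks. The lowest and the highest value of the whole series were both in the FT 2 weeks group.

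*S100a9* followed the same course, with 19.0, 7.34 and 4.99 CPM in NI, 2.94, 2.17 and 2.26 CPM at HS 72 h and 7.61, 3.21 and 4.27 CPM at FT 72 h. It had 5.72 and 5.29 CPM at HS 1 week, 13.9, 11.5 and 5.43 CPM at HS 2 weeks, 13.6, 4.64 and 4.81 CPM at FT 1 week and 1.12, 57.8 and 13.1 CPM at FT 2 weeks. The differences from NI at HS 72 h were -1.94 for *S100a8* (SE 0.81, limma adjusted p = 0.0801) and -1.68 for *S100a9* (SE 0.78, adjusted p = 0.113), and neither passed. For *S100a8* the call passed with edgeR's quasi-likelihood test (-2.25, adjusted p = 0.0430), with DESeq2 (-2.26, adjusted p = 0.0481), with equal column totals (-2.42, adjusted p = 0.0224) and when only the groups compared were fitted (adjusted p = 0.00274), while the lowest and highest adjusted p over 16 alternatives were 0.00274 and 0.268. The lower *S100a9* level passed in 2 alternatives, with equal column totals (-2.14, adjusted p = 0.0329) and when only the groups compared were fitted (adjusted p = 0.00465), with adjusted p from 0.00465 to 0.335 over all alternatives run. At FT 72 h the differences were -0.92 and -0.85, and the groups overlapped. At FT 2 weeks they were 0.08 and 0.20 with all samples, 1.43 and 1.58 without replicate 1 and -1.14 and -1.01 without replicate 2, none of which passed.

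After each other, the genes nearest to *S100a8* and *S100a9* over the 20 samples were *Camp* and *Lcn2*, which encode granule proteins of neutrophils. *Camp*, *Lcn2* and *Ngp*, a further granule gene, belong to a fixed list of 11 neutrophil genes, of which *Ly6g* was not in the table. *Ngp* had 0.281, 63.0 and 27.3 CPM at FT 2 weeks and *Lcn2* had 0.187, 12.8 and 5.80 CPM, in the order of *S100a8*. Not all listed genes followed this course. *Elane* had 1.97, 2.19 and 2.11 CPM in NI and 2.87, 3.49 and 2.26 CPM at HS 72 h, each above NI. *Mpo* had 19.8 CPM in HS 2 weeks replicate 1 against 0.855 and 0.604 CPM in replicates 2 and 3. The log2 difference from NI was positive for 2 of the 10 measured at HS 72 h and for 2 at FT 72 h. The 10 neutrophil genes measured summed to between 41.3 and 81.8 CPM in NI, 22.9 and 24.6 CPM at HS 72 h, 20.5 and 50.4 CPM at FT 72 h and 14.4 and 176.4 CPM at FT 2 weeks. At HS 72 h 2 of the 10 were called lower, *Mmp9* (-1.58) and *Camp* (-2.07, with 0 reads in replicate 3), and at FT 72 h 1 was, *Cxcr2* (-1.06), with none higher, and without FT 72 h replicate 1 *Mmp9* was called there too (-1.94). Of all genes, 4.31% were called lower at HS 72 h and 4.09% at FT 72 h. Neutrophils make little CX3CR1, on whose promoter the sort rested. The part of neutrophil RNA in the *S100a8* and *S100a9* values was not tested.

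**Figure D2:**
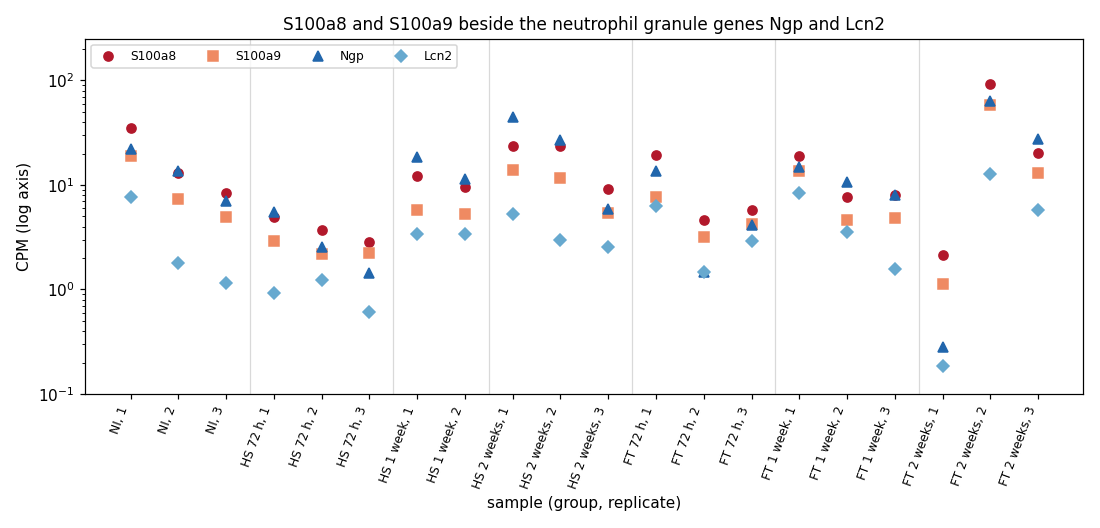
CPM (log axis) of *S100a8* and *S100a9* (red and orange) and of the neutrophil granule genes *Ngp* and *Lcn2* (dark and light blue) in each sample, ordered by group and replicate. All 4 genes are low in the HS 72 h samples, lowest in FT 2 weeks replicate 1 and highest in FT 2 weeks replicate 2, where *S100a8* reached 93.5 CPM.

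Counted together, 3 of the 9 markers were called higher than NI at HS 72 h (*Ccr2*, *Ccr1* and *Emr1*) and 0 lower, where 9.08% of all genes were called higher and 4.31% lower. At FT 72 h 5 of the 9 were called higher (the same 3 with *Ly6c2* and *Plac8*) and 0 lower, against 8.14% and 4.09% of all genes. The median log2 fold change over the 9 was 0.44 at HS 72 h and 1.10 at FT 72 h, beside -0.11 and -0.09 over all genes. Both comparisons share the NI samples. None of the 9 was called at 1 week (all genes 1.7% higher and 0.482% lower after HS, 2.86% and 1.2% after FT) or at 2 weeks (2.43% and 0.797% after HS, 3.53% and 1.36% after FT). At an unadjusted p under 0.05 there were 1 and 3 of the 9 at 1 week and 2 and 0 at 2 weeks, after HS and FT. Of all 16810 genes, 2147 and 3060 reached it at 1 week and 2708 and 3211 at 2 weeks. Without FT 1 week replicate 1, *Ccr1* (1.21), *Emr1* (1.32) and *Ly6c1* (-2.24) passed at FT 1 week, a setting singled out after seeing the data. Over all settings, 476 to 1182 of all genes were called at FT 1 week.

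**Figure D3:**
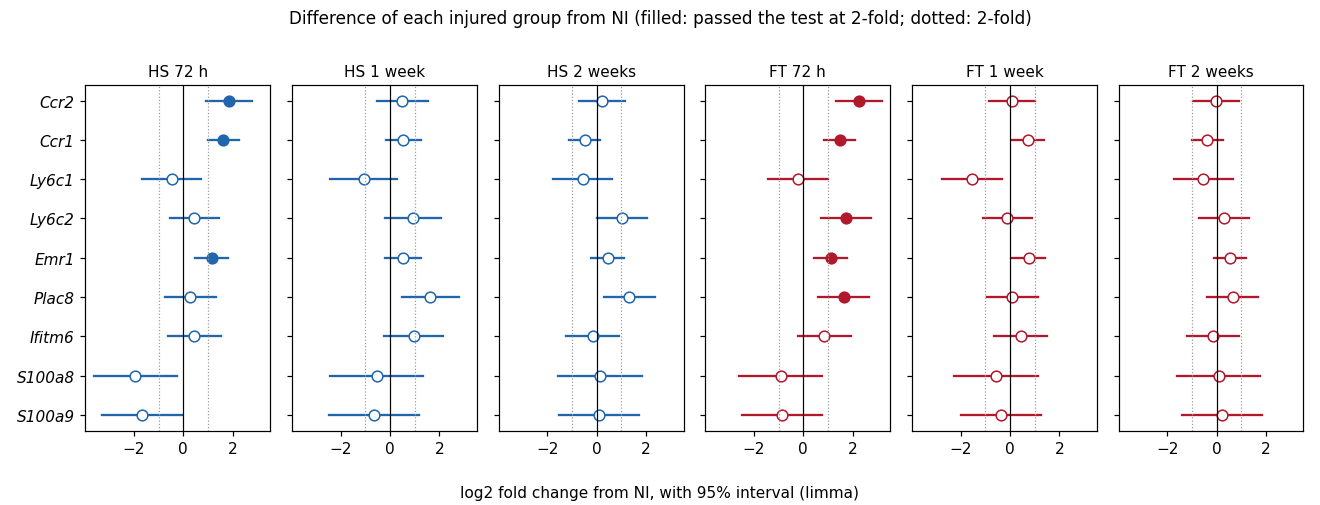
Log2 fold change from NI (horizontal axis, limma estimate with its 95% interval) of the 9 markers in the 6 injured groups, where filled circles passed the test at 2-fold or more and dotted lines mark 2-fold. There are 3 filled circles at HS 72 h, 5 at FT 72 h and none at 1 or 2 weeks.

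Comparing 72 h with the mean of the later times of the same injury, 2 of the 9 were called higher after HS (*Ccr2* and *Ccr1*) and 3 after FT (*Ccr2*, *Ccr1* and *Ly6c2*), with 0 lower in both. Of all genes, 3.78% were called higher and 1.76% lower after HS, and 2.83% and 0.976% after FT. After HS, *Plac8* lay lower at 72 h than at every later HS sample (log2 difference -1.20, limma adjusted p = 0.0718), while after FT its difference was 1.27 (adjusted p = 0.0719), and neither passed. The HS value passed with equal column totals (-1.40, adjusted p = 0.0323) and with only the groups compared (adjusted p = 0.0209), and the FT value with DESeq2 (1.31, adjusted p = 0.0385) and without FT 1 week replicate 3 (1.45, adjusted p = 0.0376). Between 2 weeks and 1 week 0 of the 9 were called by limma, with 0.113% of all genes called in either direction. *Ccr1* and *Ifitm6* had an unadjusted p under 0.05 in that comparison, as did 1175 of all 16810 genes. In it edgeR and DESeq2 each called 1 of the 9, *Ccr1*.

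The 2 severities were compared directly at each time. Of the 9 markers 0 were called by limma at 72 h, 1 week or 2 weeks, and so were 0% of all genes at each of the 3 times. An unadjusted p under 0.05 was reached by 505, 724 and 438 of all genes and by 2, 1 and 0 of the 9. Over all genes edgeR called 0 at each time, and DESeq2 called 0, 7 and 1. At 72 h the 2 were *Plac8*, 2.55-fold higher after FT than after HS (log2 difference 1.35, 95% interval 0.32 to 2.39, unadjusted p = 0.0127, limma adjusted p = 1), and *Ly6c2*, 2.41-fold higher (1.27, 95% interval 0.26 to 2.28, unadjusted p = 0.0165, limma adjusted p = 1). For both genes all 3 FT samples exceeded all 3 HS samples. At 1 week the 1 was again *Plac8*, now 2.92-fold lower after FT (-1.55, 95% interval -2.70 to -0.39, unadjusted p = 0.0112, limma adjusted p = 0.999), with all 3 FT samples below both HS samples. The change in sign between the 2 times was not tested.

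For the 3 markers called after both injuries, the FT minus HS difference at 72 h was 0.40 for *Ccr2* (95% interval -0.54 to 1.33), -0.14 for *Ccr1* (-0.77 to 0.49) and -0.04 for *Emr1* (-0.70 to 0.62). The interval of *Ccr2* reached beyond 2-fold, and those of *Ccr1* and *Emr1* stayed within it. For *S100a8* the interval at 72 h was -0.67 to 2.71, around a difference of 1.02. All 9 intervals at 2 weeks included 0, with differences from -0.74 for *Ly6c2* to 0.11 for *Ccr1*.

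Further gene lists placed these markers among others of the same cells. They were written with earlier results of these data known, so their counts and test results only describe these data. Of 12 other genes of classical monocytes, 6 were called higher at HS 72 h and 7 at FT 72 h, with 0 lower, where 9.08% and 8.14% of all genes were called higher. The median over the list was 1.23 and 1.72, or 6 genes and 1.17 at FT 72 h without replicate 1. The strongest was *Fn1*, which encodes the matrix protein fibronectin. It rose from 12.9 ± 1.33 CPM (SD, n = 3) in NI to 545.5 ± 125.9 CPM at HS 72 h and 597 ± 276.5 CPM at FT 72 h (SD, n = 3 each). *Fn1* was also called higher at 2 weeks (4.37 after HS and 4.26 after FT), as were *Cd44* (2.40 and 2.39) and *Ms4a4c* (1.81 and 2.32). Between 4 and 5 of these 12 genes were called higher at each of the later times, where the share of all genes ran from 1.7% to 3.53%. *Fn1* made up most of the list's summed level at 72 h, which had a mean of 708.6 CPM after HS and 808.8 CPM after FT.

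Of 7 genes that set blood-derived macrophages apart from microglia, 3 were called higher at HS 72 h and 4 at FT 72 h, with 0 lower, and 0 were called at any later time. The share of all genes called higher was 9.08% at HS 72 h and 8.14% at FT 72 h. *Arg1*, an arginine-metabolizing enzyme, had log2 fold changes of 4.06 after HS and 4.13 after FT, and *Tgfbi*, a matrix protein and the gene nearest to *Ccr2*, had 1.63 and 1.73. *Emilin2* rose by 1.48 and 1.93, and *Ahnak* passed at FT 72 h (1.07) and had 0.71 at HS 72 h, short of 2-fold. These FT values were lower without replicate 1, which had 66.8 CPM of *Ahnak* against 25.7 and 20.1 CPM in the other samples, 690 CPM of *Tgfbi* against 162 and 226 CPM, and 87.1 CPM of *Arg1* against at most 24.2 CPM. Without it *Arg1* (3.44), *Emilin2* (1.68) and *Tgfbi* (1.11) were still called and *Ahnak* was not (0.56, limma adjusted p = 0.140). Together the 7 genes summed to between 126.9 and 136.9 CPM in NI, 369 and 390.1 CPM at HS 72 h and 257 and 933.7 CPM at FT 72 h, the highest being replicate 1, which was also highest for *Ccr2* and *Ccr1*. Without that sample the FT 72 h differences were 1.78 for *Ccr2* (limma adjusted p = 0.00936) and 1.15 for *Ccr1* (adjusted p = 0.0119), and both were still called.

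Of 11 genes of patrolling monocytes, which carry low Ly6C, *Treml4* and *Spn* were called higher at 72 h after both injuries (1.44 and 1.16 after HS, 1.14 and 1.36 after FT) and *Emr4* lower after HS (-1.24). Markers of other cell types were counted beside the shares of all genes called at 72 h, which were 9.08% higher and 4.31% lower after HS and 8.14% and 4.09% after FT. Of 10 lymphocyte genes 0 were called at HS 72 h and 1 at FT 72 h, *Nkg7* (1.57, or 1.52 and not called without replicate 1, limma adjusted p = 0.0851), and of 7 dendritic cell genes and 9 endothelial genes 0 were called at either. The summed level of the lymphocyte list was 39.0 to 44.7 CPM in NI, 53.1 to 62.0 CPM at HS 72 h and 50.8 to 57.3 CPM at FT 72 h. Most of it was *Cd79b*, a B cell receptor subunit, with means of 33.4, 49.6 and 43.8 CPM in these groups, and the median log2 difference over the 10 genes was -0.19 at HS 72 h and 0.08 at FT 72 h. The summed level of the dendritic list was 24.6 to 31.6, 25.4 to 46.0 and 31.1 to 69.9 CPM in the same groups. Of 8 measured genes of border macrophages, which line meninges and vessels, *Folr2* (2.63 and 3.12) and *Ms4a7* (1.11 and 1.60) were called higher at 72 h after both injuries, and *Mrc1* (-1.05) and *Lyve1* (-1.20) lower at FT 72 h, with 3 higher and 3 lower there without replicate 1. The share of each of these cell types in the marker values was not tested.

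Among the 12 homeostatic microglia genes, 1 was called higher at 72 h after each injury, *Fcrls* (1.51 and 1.61), and 1 lower, *Tmem119* (-1.22 and -1.13). Their median was -0.35 at HS 72 h and -0.30 at FT 72 h, and it moved with the scaling, to -1.12 and -1.03 with quantile normalization and -0.86 and -0.77 with equal column totals. Under those 2 settings the classical monocyte list kept 0 genes lower and 4 to 8 higher, and the blood-derived list 0 lower and 3 higher. With equal column totals the patrolling list had 1 gene higher at HS 72 h and 0 at FT 72 h, and the border list had 4 and 3 genes lower.

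**Figure D4:**
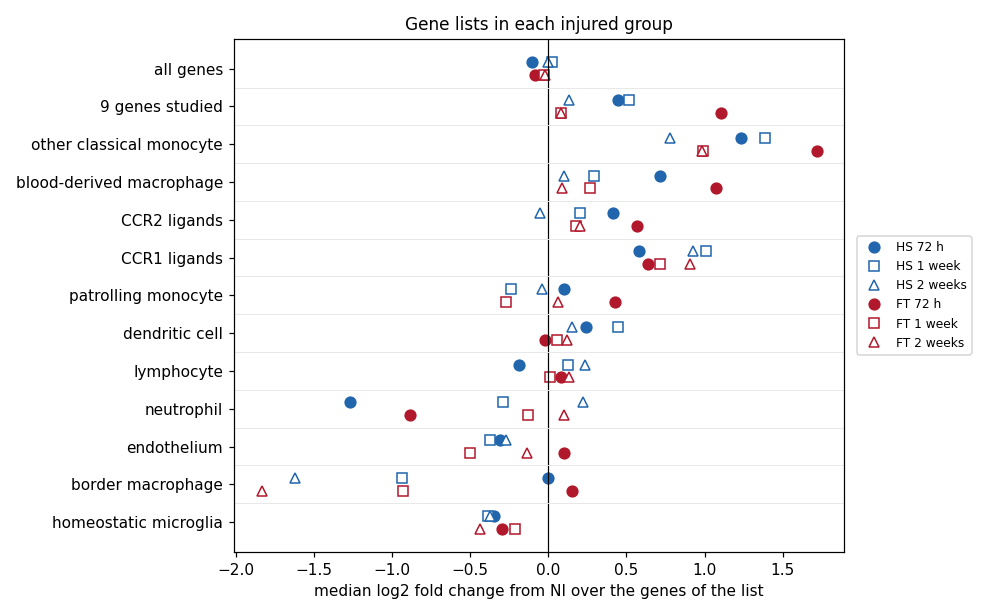
Median log2 fold change from NI (horizontal axis) over the genes of each list, with blue for HS, red for FT, filled circles for 72 h, open squares for 1 week and open triangles for 2 weeks. The 9 markers studied lie at 0.44 and 1.10 at 72 h and between 0.08 and 0.52 later, the neutrophil list is lowest at 72 h (-1.27 and -0.89), and all genes stay within 0.11 of 0.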

How the data were processed

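Per the study's methods and the labels' processing notes, the authors removed reads with adapters, mapped the rest with TopHat2 2.0.9 to mm10 (GRCm38), counted reads per gene with HTSeq 0.5.4p3, dropped low genes and normalized with edgeR 3.3.6. The signal they deposited is 1 table of normalized counts (CPM). Division by the value of 1 read gave whole reads for 99.989% of 336200 values (within 0.001 read), so depth could be recovered, and intervals per read cover counting error only. Strandedness and batches are not given in the sources used here.

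Here log2(CPM + 0.5) was fitted with limma 3.58.1 (R 4.3.3, intensity trend, 20 samples, 1 mean per group) for 12 comparisons, and p-values were adjusted over 16810 genes by Benjamini-Hochberg. A gene was called at an adjusted p under 0.05 and at least 2-fold. The fit was tested on simulated data with 1 spread for every gene and no outlying samples. That simulation therefore cannot show how the fit handles the uneven spread and outlying samples of these data. Loci are from GENCODE (GRCm38). All 9 markers are named, with at most 4 called genes per list (smallest p at 72 h) and the 3 nearest patterns per marker (root mean square difference of centred log2 values, 14050 genes with a mean of at least 1 CPM). *Ngp*, *Lcn2* as plotted, *Elane*, *Mpo*, *P2ry12*, *Cd79b*, *Mmp9*, *Pecam1*, *Cldn5*, *Cdh5* and the list genes of the later times were named after their values were seen. Of 97 genes in 11 other lists 95 were in the table, *Ly6g* and *Cd209f* not. Of the groups compared that have 3 samples each, replicate numbers paired the samples (every r above 0.1) only for HS 72 h with FT 72 h. There r was 0.14, 0.18 and 0.27, with no source for the pairing in the labels. HS 1 week, with 2 samples, was not judged. Its same-numbered r were 0.15 and 0.25 with HS 72 h, 0.10 and 0.18 with HS 2 weeks and 0.17 and -0.05 with FT 2 weeks. With FT 1 week they were -0.30 and -0.39, and with NI 0.14 and -0.11. Same-numbered samples of HS 2 weeks and FT 72 h, not compared with each other, reached a like r (0.12, 0.15 and 0.32). Members and lists were chosen with earlier results of these data known. Alternatives were 0.1 or 1 CPM added, fitting only the groups compared, dropping genes that reach 1 CPM in fewer than 2 samples, median-of-ratios, quantile or equal-total scaling, no fold limit, a replicate block, tests of the recovered reads by edgeR 4.0.16 or DESeq2 1.42.0, and dropping each sample in turn.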

Additional observations from a re-analysis of the deposited data

Results flagged for a closer look

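Effects that differed between times were singled out, by a test of the difference or because the samples of 2 times lay on opposite sides of NI. By limma with Benjamini-Hochberg adjustment, *Ccr2* was higher at 72 h than later by 1.502 after HS and 2.21 after FT (log2), and *Ccr1* by 1.61 after HS and 1.31 after FT. *Ly6c2* was higher at 72 h than later after FT by 1.63, resting on 21 to 44 reads per sample at 72 h.

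All *Ccr1* values at HS 72 h lay above NI and all at HS 2 weeks below it, a log2 distance of 2.12. The same held for HS 1 week and HS 2 weeks (1.02) and for FT 72 h and FT 2 weeks (1.86). These 3 distances were not tested as such. Groups of 2 or 3 samples are too small for a test of single outlying samples.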

How the results depend on the processing

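Over 108 differences of a marker, 703 values with 1 sample left out kept their side of the threshold, 12 lost a call and 5 gained one, while under other settings 1065 kept it, 6 lost a call and 18 gained one, and no called value changed sign. *Ccr2* and *Ccr1* at 72 h against NI were called in every alternative run. Low counts limit *Ly6c2*, *Plac8* and *Ifitm6* (down to 1, 5 and 3 reads), and the spread within FT 2 weeks limits *S100a8* and *S100a9*.

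With only the groups compared, 5 markers were called at HS 72 h (3 with all groups, gaining *S100a8* and *S100a9*, both lower), 2 at HS 1 week (0, gaining *Plac8* higher and *Ly6c1* lower) and 5 at HS 72 h against later times (2, gaining *Plac8*, *S100a8* and *S100a9*, all lower). With equal column totals, 3 were called at FT 72 h (5 before, losing *Plac8* and *Emr1*) and 1 at FT 1 week (0, gaining *Ly6c1*, lower). Between 2 weeks and 1 week, 1 was called (0 before) under quantile normalization, equal column totals, edgeR and DESeq2. Leaving out 1 sample gave 2 to 3 at HS 72 h, 3 to 5 at FT 72 h (3 without NI replicate 2), 0 to 3 at FT 1 week (3 without replicate 1 of that group), 1 to 2 for HS 72 h against later times, 2 to 4 for FT 72 h against later times, 0 to 1 between 2 weeks and 1 week, and 0 to 0 elsewhere. Over all settings, the genes called among all 16810 ran from 1900 to 4585 at HS 72 h and 1719 to 4060 at FT 72 h. They ran from 166 to 652 at HS 1 week, 476 to 1182 at FT 1 week and 6 to 54 between 2 weeks and 1 week. For 72 h against later times they ran from 653 to 2753 after HS and 535 to 1453 after FT. Marker counts were not set against the share of all genes under each single setting. Over all groups, deviations of same-numbered samples correlated at -0.39 to 0.38 (median -0.002, 57 pairs), like those of other pairs (-0.40 to 0.39). The 3 pairs of HS 72 h with FT 72 h were all above 0.1, as were the 3 of HS 2 weeks with FT 72 h, which were not compared. With the replicate number as a block in HS 72 h and FT 72 h alone, a fit added after seeing the data, 0 markers and 0 genes were called between FT and HS at 72 h, with adjusted p of 0.744 for *Plac8* and 0.752 for *Ly6c2*. With the replicate block over all groups the counts of called markers were 3 at HS 72 h, 5 at FT 72 h, 2 and 3 for 72 h against later times, and 0 elsewhere, as without it.

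Counts over all genes moved by more than 1.5 times with no fold limit, from 2250 to 4585 at HS 72 h, 2057 to 4060 at FT 72 h, 543 to 839 at HS 2 weeks, 681 to 1182 at FT 1 week, 821 to 1373 at FT 2 weeks, 931 to 2753 for HS 72 h against later times and 639 to 1453 for FT. HS 1 week moved from 367 to 166 without its replicate 1 and to 652 with only the groups compared, and 2 weeks against 1 week from 19 to 6 without HS 1 week replicate 2 and to 54 with DESeq2. Except where a setting drops samples or the fold limit, the cause was not tested.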

Other observations

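Border macrophages, which line the meninges and vessels, and dendritic cells are other myeloid cells that a sort on eGFP could hold. At 2 weeks 6 of 8 border macrophage genes were called lower than NI after each injury, among them *Lyve1*, a hyaluronan receptor, by a log2 difference of -3.04 after HS and -2.95 after FT (limma adjusted p = 1.12e-06 and 1.24e-06). Of the same list 1 gene was called higher at HS 2 weeks, *Ms4a7* (1.45), and 2 at FT 2 weeks, *Ms4a7* (2.15) and *Folr2* (1.37). Of all genes, 0.797% were called lower and 2.43% higher at HS 2 weeks, and 1.36% and 3.53% at FT 2 weeks. Of 7 dendritic cell genes, 1 was called at 1 and 2 weeks, *Itgax*, an integrin also made by activated microglia. It had 15.3 ± 1.17 CPM (SD, n = 3) in NI, 166 ± 30.2 CPM at HS 2 weeks and 154 ± 4.45 CPM at FT 2 weeks (SD, n = 3 each). The median of the border list at 2 weeks was -1.63 after HS and -1.84 after FT, beside -0.01 and -0.02 over all genes.

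In FT 2 weeks replicate 1, with 11565342 reads, several low genes had few reads. It had 1 read of *Ly6c2*, 3 of *Ifitm6* and *Ngp*, and 0.842 CPM of *Esam*. Its 12 homeostatic microglia genes summed to 31920 CPM, against 25610 and 21020 CPM in the other samples of the group.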
